A study of Mus musculus with 14 samples.

Results

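The cytosolic ribosomal protein genes encode the proteins that, with ribosomal RNA, make up the large and small subunits of the cell's main ribosomes. They were chosen by name: every gene whose symbol is Rpl or Rps followed by a digit, together with Rplp0, Rplp1, Rplp2 and Rpsa, leaving out the Rps6k kinases, Rps19bp1 and the genes named as pseudogenes. This gave 87 of the 24091 genes in the count table. Of these, 77 are the usual gene of a ribosomal protein (46 of the large and 31 of the small subunit), and the other 10 are paralogs or retrocopies such as Rps27l and Rpl7l1.

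RNA was sequenced from T cells sorted from the spleen of 14 mice, with 1 library per mouse. The 8 chronic phase (CP) CML mice were Mir142+/+BCR-ABL and the 6 blast crisis (BC) CML mice were Mir142-/-BCR-ABL, so the comparison asks how T cells without miR-142 differ from T cells with it in mice that all carry the leukemia transgene. All were C57Bl/6j mice with CD45.2, aged 6 to 10 weeks and of both sexes. BCR-ABL, the fusion kinase of chronic myeloid leukemia, was switched on for 3 weeks by withdrawing tetracycline; the transactivator is driven by the stem cell leukemia (SCL) gene's enhancer, which is active in stem and progenitor cells, whereas Mir142 is deleted in every cell of the BC CML mice. No mice without BCR-ABL were in this comparison, and every CP CML mouse is named with one numeric prefix and every BC CML mouse with another. What the prefix stands for is not given in the sources used here, and it cannot be told apart from genotype.

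Ribosomal protein mRNAs are among the most abundant of a T cell. In vertebrates they begin with a 5′ terminal oligopyrimidine (TOP) tract, a C followed by a run of C and T, through which mTOR and the RNA-binding protein LARP1 set how strongly they are translated. Each ribosome needs its proteins in fixed proportions, and resting T cells that are stimulated build many new ribosomes before they divide. When assembly is disturbed, free Rpl5 and Rpl11 bind Mdm2 and release p53, and loss of a single copy of any of several ribosomal protein genes causes Diamond-Blackfan anemia in people.

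The transcription starts of 7 members are given first. They include the largest fall, the smallest fall among the usual genes and the only member called higher in BC CML, and were chosen for this. Sequences are from RefSeq on GRCm38.p6 (mm10), on the strand of the gene, from 50 bases before the annotated start to 20 bases after it. Capitals mark the TOP tract, searched for as a C with at least 4 further C or T that began within 5 bases of the start; no capitals means no match, and a run of C and T can reach further upstream than the search, as in Rpl7a. The windows are those of Rps27 (chr3:90213629-90213698, minus strand), the upstream start of Rps24 (chr14:24490628-24490697, plus strand), Rpl12 (chr2:32961662-32961731, plus strand), Rplp2 (chr7:141447601-141447670, plus strand), Rps16 (chr7:28350639-28350708, plus strand), Rpl7a (chr2:26910757-26910826, plus strand) and the upstream start of Rps27l (chr9:66946036-66946105, plus strand). Rps24 and Rps27l each have a further annotated start downstream, at which the search found no tract.
Rps27: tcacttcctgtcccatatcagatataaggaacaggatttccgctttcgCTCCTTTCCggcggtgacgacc
Rps24: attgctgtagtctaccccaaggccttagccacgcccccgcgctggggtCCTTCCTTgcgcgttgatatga
Rpl12: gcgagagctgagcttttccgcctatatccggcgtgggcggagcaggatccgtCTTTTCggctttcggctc
Rplp2: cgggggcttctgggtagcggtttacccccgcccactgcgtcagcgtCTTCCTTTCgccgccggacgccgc
Rps16: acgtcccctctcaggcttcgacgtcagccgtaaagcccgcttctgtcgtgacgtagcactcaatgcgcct
Rpl7a: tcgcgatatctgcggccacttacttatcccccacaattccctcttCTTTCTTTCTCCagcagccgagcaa
Rps27l: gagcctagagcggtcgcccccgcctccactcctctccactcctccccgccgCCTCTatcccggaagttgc

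Promoter windows were found for 66 of the 87 members and 57 of the 77 usual genes. A TOP tract was present at a start of 27 of these 57 genes (47.4%), against 5718 of all 27025 genes with a window (21.2%). The core letters bound by ETS factors, CCGGAAG or its reverse CTTCCGG, were found in the window from 250 bases before to 50 bases after the start of 24 of the 57 (42.1%) and of 9.93% of all genes. The letters of the YY1 core, AAGATGGC or GCCATCTT, were in 5 of the 57 (8.77%) and in 3.19% of all genes. The ETS and YY1 letters can overlap by their shared AAG. A gene without a match at its RefSeq start is not shown to lack the tract in T cells. Among the usual genes tested, the median log2 fold change of BC CML against CP CML was -0.72 for the 27 with a TOP match at an annotated start and -0.68 for the 29 where the search found none. For the ETS core it was -0.68 with and -0.69 without, and for the YY1 core, held by only 5 genes, -0.55 with and -0.69 without.

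Ribosomal protein mRNAs were lower in BC CML T cells, nearly without exception. The percentage of all counted reads that fell on the 87 genes was 7.69 at the lowest, 8.07 at the median and 9.40 at the highest among the 8 CP CML mice, and 4.52, 5.03 and 5.43 among the 6 BC CML mice. The 2 ranges were well apart: the means were 8.20% ± 0.58 (SD, n = 8) for CP CML and 5.03% ± 0.35 (SD, n = 6) for BC CML. Large subunit genes took 4.48% of reads in CP CML and 2.85% in BC CML, and small subunit genes 3.69% and 2.16%. In bulk samples such as these, a change in which T cells are present and a change of RNA within each cell cannot be told apart, and a share of reads does not give the number of mRNAs per cell.

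Of the 87 members, 82 had enough reads to be tested. Of these, 79 fell in BC CML (adjusted p below 0.05, edgeR's quasi-likelihood test), where 32.7% of all 12248 tested genes were called lower, and 1 rose, where 32.6% of all were called higher. In 64 of the 82 the fall was by at least 0.5 on the log2 scale, which was so for 10.2% of all genes. The groups did not overlap, the highest BC CML value being under the lowest CP CML value, for 73 of the 82, against 17.6% of all genes in that direction. The opposite separation was seen for 1 member and for 19.3% of all genes. The median log2 fold change of the 82 was -0.68 (quartiles -0.79 and -0.52), and that of all tested genes was -0.01.

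Counting 1 gene for each ribosomal protein, 76 of the 77 were tested and all 76 fell, from -0.15 for Rpl7a to -1.36 for Rps27. In the plot of fold changes by gene the small and large subunit genes are interleaved, with the small subunit genes more often to the left. The small subunit genes had a median log2 fold change of -0.77 (31 genes, -1.36 to -0.36) and the large subunit genes one of -0.65 (45 genes, -1.06 to -0.15). The groups were without overlap for all 31 small subunit genes and for 41 of the 45 large subunit genes. This difference between the subunits is given as a description, since genes are not replicates.

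**Figure D1:**
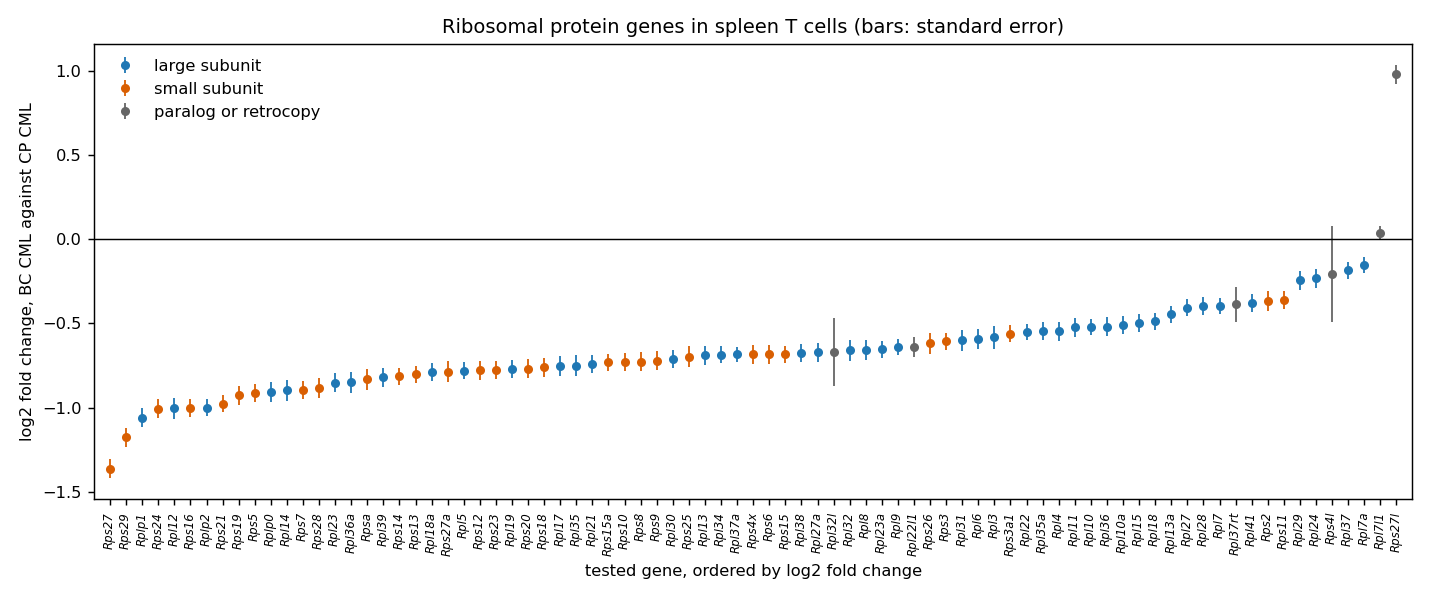
Log2 fold change (BC CML against CP CML, y axis) of 81 of the 82 tested members, ordered by size along the x axis; bars are standard errors, blue points large subunit genes, orange points small subunit genes and grey points paralogs or retrocopies. Rps27 is lowest at -1.36, every usual gene shown lies below 0, and Rps27l stands alone at 0.98.

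Rps27 encodes a zinc-binding protein on the solvent side of the small subunit and had the largest fall. Its gene spans chr3:90212667-90213648 of mm10, minus strand. Rps27 was at 1607, 1717 and 2052 CPM (read counts scaled to a fixed library size; lowest, median and highest) in CP CML and at 614, 688 and 756 in BC CML. The highest BC CML mouse had less than any CP CML mouse by a wide margin, and between 9849 and 35849 reads stood behind each value. The log2 fold change was -1.36 (SE 0.06, adjusted p = 1.95e-12), or 2.57-fold lower.

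Rps29, another small zinc-binding protein of the small subunit, fell by 1.18 on the log2 scale (SE 0.06, adjusted p = 8.92e-12). Its CPM were 768, 804 and 970 in CP CML and 335, 366 and 398 in BC CML, again without overlap. Rps24 and Rps16, which sit in the body and head of the small subunit, fell by 1.01 (SE 0.06, adjusted p = 6.57e-11) and 1.00 (SE 0.06, adjusted p = 5e-11). Rps24 was at 2270, 2424 and 2898 CPM in CP CML and at 1108, 1251 and 1338 in BC CML. Rps16 was at 941, 993 and 1163 CPM against 443, 506 and 555. For all of these genes the lowest CP CML mouse was well above the highest BC CML mouse. In all, 6 usual genes fell by at least 1 on the log2 scale: Rps27, Rps29, Rplp1, Rps24, Rpl12 and Rps16.

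The P stalk is the flexible arm of the large subunit that recruits the elongation factors; it is made of Rplp0, which anchors it, and dimers of the acidic proteins Rplp1 and Rplp2, next to Rpl12 at its base. All 4 genes fell, with log2 fold changes from -1.06 to -0.91 and a median of -1.0 against -0.65 for the large subunit as a whole. Rplp1 was at 984, 1034 and 1226 CPM in CP CML and at 448, 511 and 554 in BC CML (log2 fold change -1.06, SE 0.06, adjusted p = 4.07e-11). Rplp2 was at 574, 593 and 681 CPM against 278, 307 and 322 (-1.0, SE 0.05, adjusted p = 7.54e-12). The groups were far apart for both of these acidic proteins. Rplp0 was at 2078, 2231 and 2563 CPM against 1087, 1174 and 1335 (-0.91, SE 0.06, adjusted p = 2.57e-10), and Rpl12 at 1719, 1809 and 2238 CPM against 823, 933 and 1026 (-1.01, SE 0.06, adjusted p = 2.71e-10). None of these 4 genes had a BC CML mouse within the range of the CP CML mice.

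The proteins that join the ribosome with 5S ribosomal RNA, and that hold back Mdm2 when free, fell less evenly. Rpl5 was at 1459, 1590 and 1821 CPM in CP CML and at 855, 944 and 1004 in BC CML (log2 fold change -0.78, SE 0.05, adjusted p = 3.57e-10). Rpl11 was at 673, 698 and 835 CPM against 443, 507 and 536 (-0.52, SE 0.06, adjusted p = 2.34e-07). Both were lower in every BC CML mouse than in any CP CML mouse.

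Genes around the peptide exit tunnel (Rpl4, Rpl17, Rpl19, Rpl22, Rpl23a, Rpl31, Rpl35 and Rpl39) fell with a median log2 fold change of -0.70, between -0.55 for Rpl4 and -0.82 for Rpl39. Genes along the mRNA path of the small subunit (Rps2, Rps3, Rps23, Rps26, Rps28 and Rpsa) had a median of -0.70, from -0.37 for Rps2 to -0.88 for Rps28. Rps6, the protein that S6 kinases phosphorylate below mTOR, was at 951, 1021 and 1219 CPM in CP CML and at 578, 654 and 706 in BC CML (log2 fold change -0.68, SE 0.06, adjusted p = 8.4e-09), close to the median of all members. Rps27a, which is made as a fusion with ubiquitin, was at 999, 1105 and 1296 CPM against 572, 657 and 703 (-0.79, SE 0.06, adjusted p = 3.25e-09). The groups did not overlap for either gene.

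Of 19 genes known for Diamond-Blackfan anemia, 18 were tested and all 18 fell without overlap between the groups, with a median log2 fold change of -0.74, from -0.41 for Rpl27 to -1.36 for Rps27; among all 76 usual genes tested, 76 fell and 72 did so without overlap. The 4 members on the X chromosome (Rpl10, Rpl36a, Rpl39 and Rps4x) had a median of -0.75, so genes with 1 active copy were lower in BC CML like the others.

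The smallest falls were of Rpl7a, Rpl37, Rpl24 and Rpl29, named here after their values were seen, and these were the 4 usual genes whose groups overlapped. Rpl7a, a large subunit protein, was at 926, 984 and 1115 CPM in CP CML and at 814, 887 and 959 in BC CML (log2 fold change -0.15, SE 0.05, adjusted p = 0.00875). With a block for the replicate number in edgeR's quasi-likelihood test, Rpl7a was not called (adjusted p = 0.0605). Rpl37 was at 437, 464 and 539 CPM against 377, 416 and 440 (-0.19, SE 0.05, adjusted p = 0.00285). In both genes the highest BC CML mouse lay only slightly above the lowest CP CML mouse. Rpl24 and Rpl29 fell by 0.23 (SE 0.06, adjusted p = 0.00169) and 0.25 (SE 0.06, adjusted p = 0.00104).

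Between genes, levels were compared per kilobase of the gene length given in the table. That length was 5.129 kb for Rps15a, 4.381 kb for Rps24 and 4.235 kb for Rps3, against 0.571 kb for Rps27. Rps24, at a mean of 2487 CPM in CP CML, therefore stood at only 568 CPM per kb. How well these lengths match the mRNAs of T cells was not tested, and the order per kb and the split by length depend on them. Rps27 was the highest member in CP CML at 3082 CPM per kb, followed by Rpl12 at 2980, and Rpl22 was the lowest of the 76 at 187; in BC CML they stood at 1199, 1484 and 127. The order of the 76 levels was much the same in both groups (Spearman's rho 0.96 across genes, which share their libraries). The log2 fold change had little relation to the level in CP CML (rho -0.24) or to length (rho 0.10). Members up to 1 kb long had a median log2 fold change of -0.69 (51 genes) and longer ones of -0.68 (25 genes), whereas the 732 other tested genes up to 1 kb had a median of -0.02. Among the 735 other genes with an average log2 CPM of at least 8, 288 were called lower (39.2%) and 220 higher (29.9%), against 32.7% and 32.6% of all tested genes, and the median was -0.03.

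Within each group the members moved together from mouse to mouse. In the plot of members by mouse, each box shows how the 76 genes of 1 mouse stood to their CP CML means. In CP CML replicate 2 all 76 genes were above the CP CML mean, with a median of 0.21 on the log2 scale, and in CP CML replicate 7 all 76 were above it too, with a median of 0.07. In CP CML replicates 1 and 6 none of the 76 was above. Among BC CML mice, all 76 genes were above the BC CML mean in replicates 3 and 5 and none was in replicate 2, whose median stood 0.85 below the CP CML mean on the log2 scale. The boxes of the BC CML mice are taller, because the genes fell by unequal amounts, and all medians of BC CML mice (-0.85 to -0.58) are below all those of CP CML mice (-0.10 to 0.21).

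**Figure D2:**
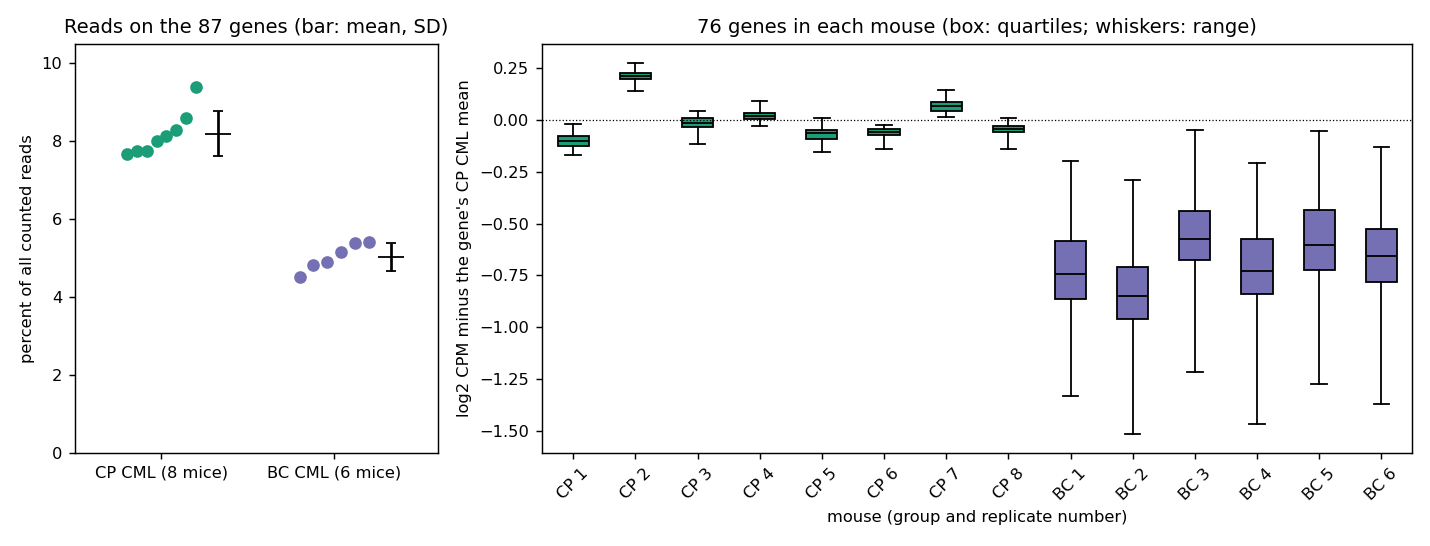
Left, percentage of counted reads on the 87 genes (y axis) for each mouse, with the mean and SD of each group; the 8 CP CML mice lie between 7.69 and 9.40 and the 6 BC CML mice between 4.52 and 5.43. Right, log2 CPM of the 76 usual genes relative to each gene's CP CML mean (y axis) by mouse (x axis), with boxes for quartiles and whiskers for the range; CP CML replicate 2 stands highest and BC CML replicate 2 lowest.

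Markers of naive T cells mostly fell in BC CML, and those of effector T cells mostly rose. Of 12 genes of naive T cells, 10 fell (83.3%, against 32.7% of all tested genes) and 1 rose (8.33%, against 32.6%). Their median log2 fold change was -0.67. Ccr7, a homing receptor of naive cells, fell by 1.05 (SE 0.10, adjusted p = 1.82e-07). The CPM summed over these 12 genes were 6768 to 8477 in CP CML and 4220 to 5924 in BC CML, so the groups were apart here as well. Of 16 effector genes, 13 rose (81.2%, against 32.6% of all tested genes) and 1 fell (6.25%, against 32.7%). Their median was 0.78, with sums of 833 to 1037 CPM in CP CML against 1714 to 2385 in BC CML.

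Within the groups, naive sums and ribosomal protein shares went together in some mice and not in others. The naive sums of CP CML replicates 2 and 7, the highest in ribosomal protein reads of their group, were 8465 and 8477 CPM, against at most 7525 in the other 6 mice. Their effector sums of 833 and 892 were the lowest of the group. In BC CML, replicate 3 had the highest ribosomal protein share and the highest naive sum (5924 CPM), and replicate 2 the lowest of both (4220 CPM). BC CML replicate 5, however, had the next highest share (5.38%) with a naive sum of 4964 CPM, below those of replicate 1 (5386 CPM, share 4.82%) and replicate 6 (5261 CPM, share 5.16%). The part of naive cells in the ribosomal protein result was not tested.

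Of 12 proliferation genes, 2 fell (Mcm2 and Pcna; 16.7%, against 32.7% of all tested genes) and the other 10 were not called; Mki67 had a log2 fold change of 0.01 (adjusted p = 0.933). All 7 T cell identity genes of the table were present, with sums of 2581 to 2972 CPM in CP CML and 2905 to 3209 in BC CML. Of these, 3 rose (42.9%, against 32.6% of all tested genes) and 1 fell (14.3%, against 32.7%). Markers of other cells were present and, for most, higher in BC CML. The 10 myeloid markers summed to 89.7 to 461 CPM in CP CML and 545 to 1340 in BC CML. Of the 10, 8 were called higher (80%, against 32.6% of all tested genes). The most abundant of them in BC CML were S100a9, at 67.5 ± 55 CPM in CP CML and 284 ± 119 in BC CML, S100a8 (48.7 ± 40 and 206.5 ± 95) and Lyz2 (25.9 ± 15 and 206.1 ± 50; SD, n = 8 and 6), all without overlap between the groups; the neutrophil markers Ly6g and Elane were the rarest, at 0 in at least 1 CP CML mouse. The 7 B cell markers summed to 57.5 to 173 CPM and 100.8 to 494 CPM, with 6 called higher (85.7%). Of 4 tested erythroid markers, 1 was called higher (25%, below the 32.6% of all tested genes). The highest myeloid sum of the CP CML mice was that of replicate 8, whose ribosomal protein share was 8.01%, and the highest of the BC CML mice that of replicate 6, with a share of 5.16%. The part of these cells in the result was not tested.

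Rps27l was the member that rose. It encodes a protein that differs from Rps27 in a few residues and can take its place on the ribosome, and its gene is a known target of p53; it spans chr9:66946076-66949522, plus strand. Rps27l was at 23.6, 25.6 and 29.1 CPM in CP CML and at 47.8, 49.8 and 57.0 in BC CML. The lowest BC CML mouse had far more than the highest CP CML mouse, and the log2 fold change was 0.98 (SE 0.06, adjusted p = 1.07e-10). The ratio of the pair therefore moved more than any single member did, and the plot of parent genes and paralogs shows this as points that approach each other. The log2 ratio of Rps27l to Rps27 was -6.09 ± 0.15 (SD, n = 8) in the CP CML mice and -3.75 ± 0.10 (SD, n = 6) in the BC CML mice, a difference of 2.34 (exact two-sided permutation p = 0.000333, the smallest that the 3003 arrangements allow; 0.000666 after adjustment over 4 pairs). Because each gene already separated the groups, in opposite directions, that p follows from the results of the genes and adds no evidence. There were 68.2 reads of Rps27 for each of Rps27l in CP CML and 13.5 in BC CML.

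Rpl7l1, a paralog of Rpl7 that acts in ribosome assembly, had 66.9, 70.8 and 77.2 CPM in CP CML and 68.1, 72.3 and 81.5 in BC CML. The groups overlapped almost completely (log2 fold change 0.04, SE 0.04, adjusted p = 0.47), while Rpl7 itself fell by 0.40 (SE 0.05, adjusted p = 1.31e-06). Their log2 ratio rose by 0.43, from -4.44 ± 0.11 (SD, n = 8) to -4.01 ± 0.06 (SD, n = 6), without overlap (exact permutation p = 0.000333, adjusted 0.000666). Rpl22 and its paralog Rpl22l1 fell together. Rpl22, whose protein restrains Rpl22l1 and is needed for the development of alpha-beta T cells, was at 441, 458 and 515 CPM in CP CML and at 282, 314 and 347 in BC CML (log2 fold change -0.55, SE 0.05, adjusted p = 2.12e-08). Rpl22l1 was at 155, 160 and 182 CPM against 96.1, 104 and 126 (-0.64, SE 0.06, adjusted p = 4.05e-08). Their ratio differed by -0.09, with overlap (exact permutation p = 0.0869, adjusted 0.116). With each mouse left out in turn, the ratio differed by -0.12 to -0.06 (exact permutation test, adjusted p up to 0.207). It passed the threshold only without CP CML replicate 4 (-0.11, adjusted p = 0.028) or BC CML replicate 3 (-0.12, adjusted p = 0.0148).

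**Figure D3:**
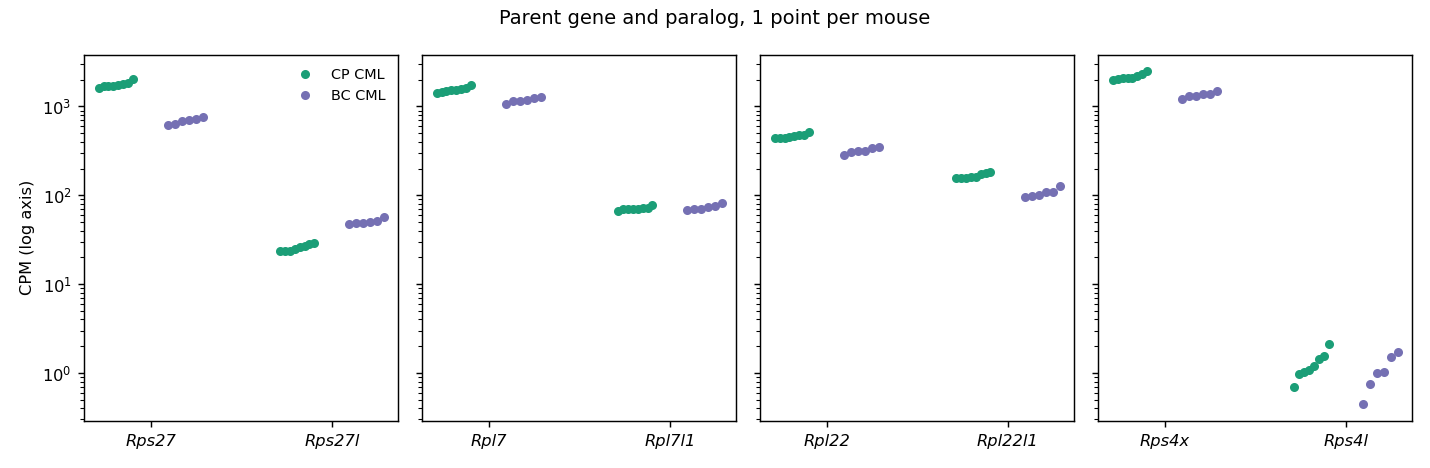
CPM (y axis, log scale) of 4 parent genes and their paralogs, with 1 point per mouse, CP CML in green and BC CML in violet. Rps27 falls while Rps27l rises from 23.6 to 29.1 CPM in CP CML to 47.8 to 57.0 in BC CML; Rpl7l1 stays level beside Rpl7, Rpl22l1 falls with Rpl22, and Rps4l is near 1 CPM with overlapping groups.

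The remaining paralogs and retrocopies were low. Rps4l had 0.70 to 2.10 CPM in CP CML and 0.44 to 1.73 in BC CML (log2 fold change -0.21, SE 0.28, adjusted p = 0.538). Its ratio to Rps4x differed by 0.40 (exact permutation p = 0.211). With each mouse left out in turn, that difference was 0.24 to 0.61 (same test, adjusted p up to 0.436). It passed the threshold only without BC CML replicate 1 (0.61, adjusted p = 0.0482). Rpl32l and Rpl37rt, which resemble Rpl32 and Rpl37, were at means of 1.55 and 6.61 CPM in CP CML and fell by 0.67 (SE 0.20, adjusted p = 0.00756) and 0.39 (SE 0.10, adjusted p = 0.00347) with overlapping groups. Reads of such near-identical copies may come in part from their parent genes, so these values are uncertain.

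The 5 members not tested were Rpl10l, Rpl3l, Rpl36al, Rpl39l and Rpl26. Rpl10l was at 0 in all 14 libraries, Rpl3l and Rpl36al had at most 5 reads in any, and Rpl39l at most 22. Rpl26, an abundant protein of the exit tunnel, was also listed at 0 reads in all 14 libraries. In the table its gene spans chromosome 11 from 68901566 to 68904534, and a second gene, Gm15772, covers 68901635 to 68904534 on the same strand, with 6 to 22 reads; Rpl36al likewise lies inside Dnaaf2 (239 to 351 reads) on the same strand. The zeros therefore say nothing of the level of Rpl26 mRNA.

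Several lists of genes that work with the ribosomal proteins fell too, as the plot of gene lists shows. Fau, which encodes a small subunit protein as a fusion, and Rack1, a scaffold on the small subunit, are ribosomal by function but not by name, and both fell without overlap: Fau by 0.72 (535 ± 43 to 324 ± 19 CPM) and Rack1 by 0.60 (867 ± 56 to 573 ± 40; mean ± SD, n = 8 and 6). Their adjusted p-values were at most 1.31e-08. A list of 18 other genes known for TOP mRNAs came from general knowledge and not from the sequence search. Of these 18, 17 fell (94.4%, against 32.7% of all tested genes) and 1 was not called. Their median log2 fold change was -0.35. The search found no TOP tract at the RefSeq start of Tpt1. Tpt1, the translationally controlled tumor protein, fell by 0.92 and the elongation factor subunits Eef1b2 by 0.82, Eef1g by 0.66 and Eef1a1 by 0.60, all without overlap. The one not called was Eif3l (-0.02, adjusted p = 0.624).

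Of 78 genes of ribosome assembly in the nucleolus, 64 fell (82.1%, against 32.7% of all tested genes) and 14 were not called. Their median was -0.29. The largest falls were of Rrp12 (-0.64), Utp4 (-0.63) and Tsr1 (-0.57), which help to process and export the small subunit. Of 15 genes of RNA polymerase I, which transcribes ribosomal RNA, 12 fell (80%, against 32.7% of all tested genes) and 3 were not called. Their median was -0.34, and those that fell included Taf1c (-0.50), Polr1b (-0.44) and the catalytic subunit Polr1a (-0.42). These lists were lower as a rule, yet their medians were about midway between all tested genes and the ribosomal proteins. Mitochondrial ribosomal proteins, which belong to a separate ribosome, had a median of -0.08: 26 of 77 fell (33.8%), about the share of all tested genes (32.7%), and 7 rose (9.09%, against 32.6% of all).

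**Figure D4:**
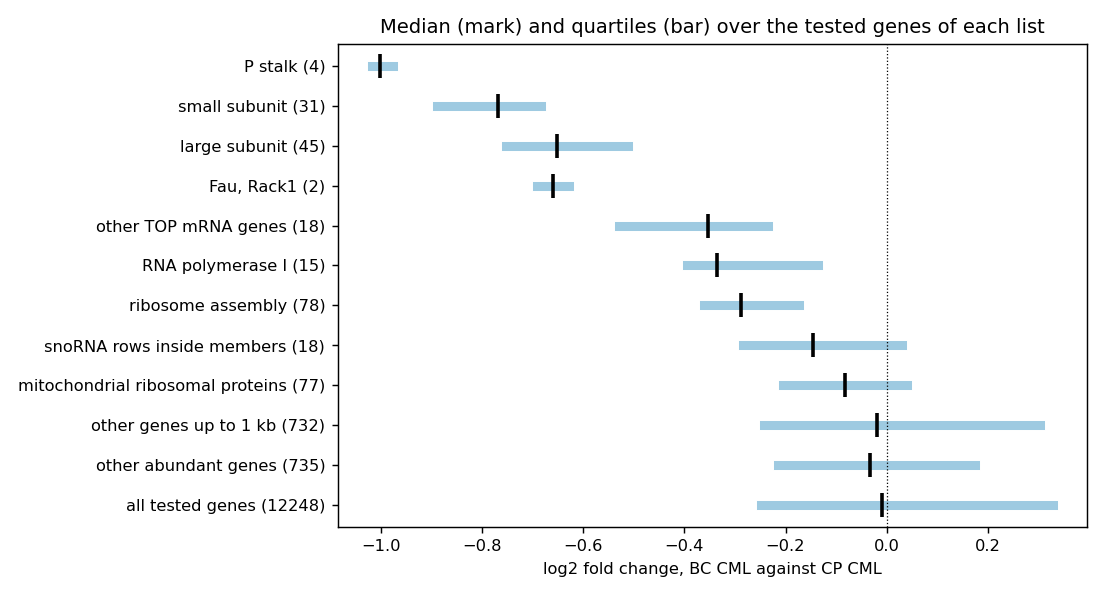
Log2 fold change of BC CML against CP CML (x axis) for each gene list (y axis, number of tested genes in brackets), with a black mark for the median and a bar between the quartiles. The P stalk (-1.0) and both subunits (-0.77 and -0.65) lie left of the other TOP mRNA genes (-0.35), RNA polymerase I (-0.34) and ribosome assembly (-0.29), and all tested genes are centered at -0.01.

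Genes that control ribosomal protein synthesis did not fall together. Of 21 tested genes, 10 rose (47.6%, against 32.6% of all tested genes) and 5 fell (23.8%, against 32.7%), with a median of 0.09. Eif4ebp2, a repressor of cap-dependent translation that mTOR inactivates, fell by 0.90 (163 ± 6.4 to 87.3 ± 3.6 CPM, adjusted p = 1.11e-12) without overlap. Rheb, the activator of mTOR, rose by 0.46, Mtor by 0.18 and Larp1, the TOP mRNA binder, by 0.15, each without overlap. Tia1, another TOP mRNA binder, rose by 0.38, and Eif4ebp1 by 0.38 with overlapping groups. Myc, which drives ribosome production, was at 124 ± 15 CPM in CP CML and 126 ± 29 in BC CML (log2 fold change 0.02, SE 0.13, adjusted p = 0.889).

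Of 10 p53 genes tied to ribosome stress, 4 rose and 3 fell (40% and 30%), shares near the 32.6% and 32.7% of all tested genes. Cdkn1a, the cell cycle inhibitor p21, rose by 1.53 (SE 0.26, adjusted p = 5.63e-05) from a low level of 0.98 ± 0.35 to 2.83 ± 1.05 CPM, and Bbc3 and Sesn1 rose by 0.75 and 0.39. Trp53 itself fell by 0.32, Mdm4 by 0.29 and Bax by 0.28, while Mdm2, the target of free Rpl5 and Rpl11, had a log2 fold change of 0.06 (adjusted p = 0.184).

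In the series as a whole, libraries held 15703702 to 19914531 counted reads. Mir142 had 302 to 650 reads in each CP CML library and 0 in each BC CML library, which fits the labels. Tspoap1, next to Mir142, took 2.03% to 2.53% of the reads in BC CML and 0.00076% to 0.00166% in CP CML; with it, Rn45s and the mitochondrial genes left out of the total, the members' share was 5.15% in BC CML against 8.20% in CP CML.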

How the data were processed

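Per the labels and the study's methods, total RNA of 200000 spleen T cells per mouse was made into libraries with the Kapa mRNA HyperPrep kit and sequenced as 101-base pairs; adapters and polyA tails were trimmed with Trimmomatic and FASTP, and reads were aligned to mm10 with STAR 2.6.0 and counted per gene with HTSeq 0.11.1 (versions from the submitters' processing notes). The authors deposited the raw counts of 24091 genes, without normalization, with each gene's position and length. The annotation, the strand setting and the treatment of reads with several alignments are not given in the sources used here, so reads shared with pseudogenes or overlapping genes cannot be traced.

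Columns were matched to mice by the names in the labels. Genes were kept by filterByExpr, normalized by TMM and compared between 8 CP CML and 6 BC CML mice by edgeR's quasi-likelihood test (edgeR 4.0.16, limma 3.58.1, R 4.3.3; no covariates, Benjamini-Hochberg adjustment over all 12248 tested genes, threshold 0.05). CPM use the TMM library sizes, and the SE is the log2 fold change divided by the root of the F statistic. Ratios of paralogs to parent genes were log2 differences of CPM (prior count 0.5), tested by an exact permutation test over the mice. Shares of reads use all counted reads. The fits were tested on simulated data. Each library is 1 mouse and no 2 agreed within sampling noise (chi-square per degree of freedom at least 2.99 in CP CML and 7.89 in BC CML). Each usual gene other than Rpl26 had at least 3271 reads in every library. Alternatives were the likelihood ratio test that the study names, DESeq2 1.42.0, RLE factors, library size alone, TMM factors computed without the ribosomal protein genes, testing without the filter, keeping genes above 1 CPM in 6 samples, a block for the replicate number, and leaving out each mouse.

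Genes named were the paralogs and their parent genes, the 6 largest rises and falls among members averaging at least 5 log2 CPM, the P stalk, Rpl5, Rpl11, Rps6 and Rps27a, the highest and lowest member per kb, and leading genes of each list; others are said to be named after their values were seen. The members, lists and tests were chosen with earlier results of these data known. List symbols not in the table were left out. No protein sequences were used here. Single values of a few genes are not reported here.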

Additional observations from a re-analysis of the deposited data

Results flagged for a closer look

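Within groups, 7 of 54 sets of values held 1 mouse far from the others, where chance gives about 2.7. In 5 of them it was CP CML replicate 2, which stood above the other 7 CP CML mice: for Rps27 with 2052 CPM (next 1815), Rplp1 with 1226 (1084), Rps16 with 1163 (1036), Fau with 638 (534) and Rack1 with 993 (893). These 5 are not independent, since all 76 usual ribosomal protein genes were above the group mean in this mouse. It had 16445699 reads, and without it the median log2 fold change of the tested members was -0.65 and 79 were called lower. CP CML replicate 4 had the lowest log2 ratio of Rpl22l1 to Rpl22, -1.64 against -1.51 in the next lowest. BC CML replicate 2 had the lowest total of its group, 16145537 reads against 18319039 in the next lowest, and also the lowest share of ribosomal protein reads (4.52%).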

How the results depend on the processing

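Under the 8 alternatives and the 14 fits that each left out 1 mouse, 78 to 79 members were called lower and 1 higher, and the median log2 fold change of the tested members was between -0.71 and -0.65. Among the 82 tested members, none changed direction past the threshold and 1 changed its side of it: Rpl7a with a block for the replicate number (-0.16, adjusted p = 0.0605 by edgeR's quasi-likelihood test). Of the paralog ratios, Rps27l to Rps27 and Rpl7l1 to Rpl7 kept both as well; Rpl22l1 to Rpl22 differed by -0.121 to -0.0618 with each mouse left out, and Rps4l to Rps4x by 0.237 to 0.615, passing the threshold without CP CML replicate 4 or BC CML replicate 3 for the first and without BC CML replicate 1 for the second; the cause was not tested. The groups share the replicate numbers 1 to 6, but the mice are different animals, and same-numbered mice did not deviate together (correlations -0.27 to 0.36, mean -0.02 over 6 pairs). With a block for the replicate number, 78 members were called lower, 1 higher, and the median log2 fold change was -0.68. The values are relative to all mRNA, bulk samples do not separate cell types, and counts of genes with many pseudogene copies depend on how reads with several alignments were treated.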

Other observations

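Many ribosomal protein genes carry genes of small nucleolar RNAs, the guides for modification of ribosomal RNA, in their introns. The table lists 31 such genes inside 22 members on the same strand. Of 18 that were tested, 2 were called lower (11.1%, against 32.7% of all tested genes), Snord83b in Rpl3 (-0.78, SE 0.26, adjusted p = 0.0136) and Snora21 in Rpl23 (-0.59, SE 0.25, adjusted p = 0.0475), both named after their values were seen and both with overlapping groups. The median log2 fold change of the 18 was -0.15. Snora65, with the most reads (83 to 134 per library), had a log2 fold change of -0.21 (SE 0.11, adjusted p = 0.103) inside Rpl12, which fell by 1.01, and Rnu73b one of 0.37 (SE 0.18, adjusted p = 0.072) inside Rps3a1, which fell by 0.56. The libraries were made from mRNA, and most of these genes had fewer than 100 reads in a library, so a fall of the size of the host's could be missed for single genes. Whether these reads come from the small RNAs or from unspliced host transcripts was not tested.

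Pseudogenes named after ribosomal protein genes took 0.00242% of reads in CP CML and 0.00167% in BC CML. Of 9 that were tested, 3 fell (33.3%, near the 32.7% of all tested genes) and 6 were not called.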
